A study of Mus musculus with 2 samples.

Results

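Hyaluronan was examined through 8 genes that make it, break it down or bind it, in the uterus of Mettl14 f/f and Mettl14 d/d mice on gestational day 4. The genes were Has1, Has2, Has3, Hyal1, Hyal2, Cd44, Vcan and Tnfaip6, taken by symbol from the 55363 genes measured, and all 8 were found. The protein made from Mettl14 is part of the enzyme that adds N6-methyladenosine (m6A) to RNA, and f/f and d/d are read as floxed and deleted alleles, as is usual. Females 6 to 8 weeks old were mated with fertile males, with the day of the plug counted as day 1, and total RNA of the whole uterus, a mixture of cell types, was sequenced. With 1 library per genotype, no value has a replicate error and no difference could be tested. The sources used here do not give the driver of the deletion, the number of animals behind each library or the strain. Higher and lower below compare these libraries, not the genotypes.

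Hyaluronan is a long, unsulfated sugar polymer that the membrane enzymes encoded by the Has genes extrude directly into the extracellular space. Hyaluronidases and lysosomal glycosidases cut it, cell-surface receptors such as CD44 bind it, and versican and TSG-6 (the product of Tnfaip6) build it into larger matrices. In the uterus it is known for holding water in the stroma and for its turnover around the attaching embryo.

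Of the 8 genes, 7 had lower levels in the d/d library and 1, Hyal2, had a higher level. Levels are in FPKM, fragment numbers divided by gene length and library size, which allows genes to be compared per length. Has2, the main synthase of the tissue by level, was 9.04 FPKM in f/f against 3.46 in d/d, which is 2.61-fold lower. The proteoglycan gene Vcan was 1.82-fold lower and the cross-linker gene Tnfaip6 2.03-fold lower, while the hyaluronidase gene Hyal2 was 1.67-fold higher. The summed level of the 3 synthases went from 11.5 to 4.53 FPKM and that of the 2 hyaluronidases from 72.4 to 111 FPKM. The sum of hyaluronidase levels was thus 6.30 times that of the synthases in f/f and 24.4 times in d/d. The synthase sum includes Has1 and Has3, which reached 1 FPKM in f/f alone and so could only be lower in d/d. Has2 held 78.7% of that sum in f/f and 76.3% in d/d. These are RNA levels, and neither enzyme activity nor hyaluronan itself was measured.

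**Figure D1:**
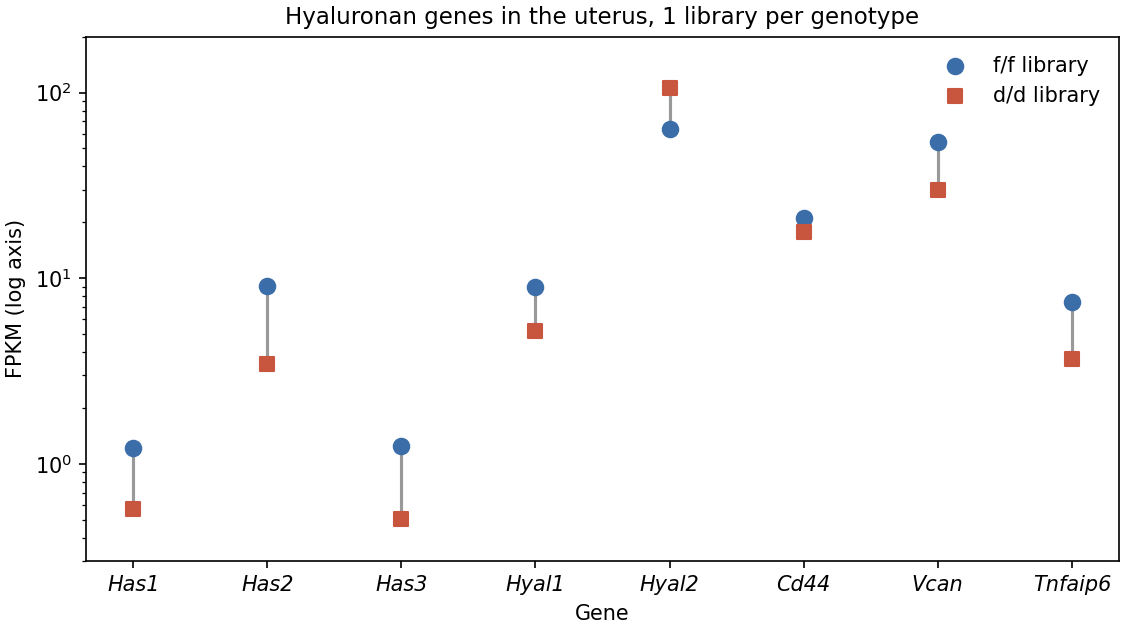
FPKM (log axis) of the 8 hyaluronan genes in the f/f library (circles) and the d/d library (squares), with a line joining the 2 values of each gene. The square lies below the circle for 7 genes and above it for Hyal2, and the gap is smallest for Cd44, at 21 and 17.7 FPKM.

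For counting, ratios were taken as log2 of (FPKM + 1), d/d minus f/f, and a gene was counted from a size of 1, which is 2-fold on that scale. The added 1 understates the change of genes near 1 FPKM. By this rule 1 of the 8 genes, Has2, was lower and none was higher. Among the 16263 genes at 1 FPKM or more in a library, 8.28% were lower and 10.2% higher by the same rule. A ratio below 0, found for 7 of the 8, was found for 50.8% of those genes, and one above 0, found for Hyal2, for 49.2%. The median ratio of the 8 was -0.63, against -0.01 over all of them, and it was -0.33 with 5 in place of the added 1 and -0.94 with nothing added. All 8 passed the filter, Has1 and Has3 through the f/f library alone, so that these 2 could pass only with a lower d/d level. On the plain FPKM ratio, 4 of the 8 (Has1, Has2, Has3 and Tnfaip6) were lower by 2-fold or more. Of the genes at 1 FPKM or more in a library that were also above 0 in both, 11.5% were lower by that measure.

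**Figure D2:**
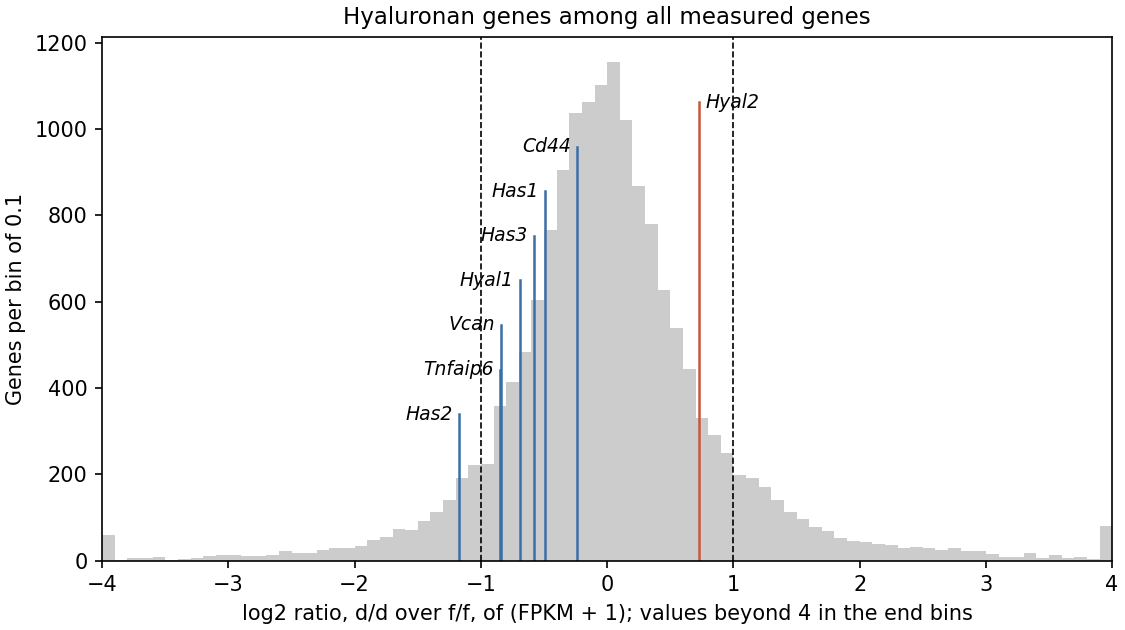
Histogram of the difference d/d minus f/f in log2(FPKM + 1), called the log2 ratio, for the 16263 genes at 1 FPKM or more in a library, with dashed lines at the 2-fold rule and a vertical line for each hyaluronan gene (line heights only separate the names). Has2 lies outside the dashed lines at -1.17, and the other 7 lie between them, from Tnfaip6 at -0.85 to Hyal2 at 0.73.

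The targeted gene, Mettl14, was 13.6 FPKM in f/f against 3.21 in d/d. From the smallest steps of the values, the f/f library held about 17800000 fragments and the d/d library about 20700000. The 12 reference genes had ratios from -0.40 to 0.41. Markers of epithelium, stroma, smooth muscle and endothelium were all detected, and the ovarian genes Fshr and Cyp19a1 were listed at 0 in both libraries.

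Sequences matching GGACT, the most familiar form of the m6A consensus known as DRACH, were counted in the coding transcript of each gene with the longest coding sequence, because the deleted gene belongs to the m6A writer. All 8 transcripts held a match, as did 86.8% of 21782 mouse coding transcripts. The match nearest the stop codon is printed for each gene, since m6A is known to be dense around stop codons. The match is in capitals with 8 bases on either side, 5′ to 3′, read from the transcript and written with T.
Has1: ctttctggGGACTcagtttac
Has2: tgctgctgGGACTtgaacaaa
Has3: tggctaccGGACTaagtatac
Hyal1: cctacctaGGACTtcctcaaa
Hyal2: gactcacgGGACTgagccagg
Cd44: tcatccaaGGACTccaggggg
Vcan: ggattatgGGACTgccgtctg
Tnfaip6: agctttttGGACTttgacctt
The matches of Has1, Has2, Hyal1 and Vcan lie in the 3′ UTR, and those of Has3, Hyal2, Cd44 and Tnfaip6 in the coding sequence. On GRCm38 they are at chr17:17843532-17843552 and chr15:56667512-56667532 on the minus strand, chr8:106878147-106878167 and chr9:107579464-107579484 on the plus strand, chr2:102828579-102828599 and chr13:89657111-89657131 on the minus strand, and chr2:52050974-52050994 on the plus strand. The Hyal2 stretch joins exons 3 and 4, between 107571051 and 107571492 of chromosome 9, on the plus strand. A match within 100 bases of the end of the stop codon was present in Has1, 80 bases after it, and in Hyal1, 58 bases after it. Windows of that 200-base size held a match in 22.8% of 19100 coding transcripts. By density, Has1 stood highest of the 8 with 2.39 matches per kb, at or above 93.1% of transcripts, and Has3 lowest with 0.846, against a median of 1.01. Vcan, the longest at 12427 nt, held 11 matches, or 0.885 per kb. Hyal2, the gene with the higher level in d/d, held 3, or 1.45 per kb, all in its coding sequence. A match gives letters only, and methylation of these transcripts was not measured here.

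The synthases build the polymer from UDP-glucuronic acid and UDP-N-acetylglucosamine, and Has2 is the one that mouse embryos cannot do without. Has2 (ENSMUSG00000022367, chr15:56665627-56694539 on GRCm38, minus strand) was 9.04 FPKM in f/f against 3.46 in d/d, about 681 and 303 fragments over its single annotated transcript of 4237 nt. Its log2 ratio of -1.17 was reached or passed downwards by 988 of the 16263 genes, or 6.08%. Has1 (chr17:17843323-17855205, minus strand) was 1.21 FPKM in f/f against 0.572 in d/d. Has3 (chr8:106870242-106884566, plus strand) was 1.24 and 0.502 FPKM. All 3 synthases were therefore lower in d/d, by 2.12-fold for Has1, 2.61-fold for Has2 and 2.47-fold for Has3. For Has1 and Has3 the filter, passed through f/f alone, allowed no other direction.

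The makeup of the synthase pool differed little between the libraries. Has2 held 78.7% of the summed synthase level in f/f and 76.3% in d/d, Has1 held 10.5% and 12.6%, and Has3 held 10.8% and 11.1%. Has1 and Has3 are low, and the Has1 values stand for only about 45 and 24 fragments over a transcript of 2095 nt, so the order of Has1 and Has3, which differs between the libraries, cannot be read. Annotated genes on the opposite strand overlap 2 of the synthases, and the sources used here do not say whether strand was used in counting. Has2os, an antisense RNA gene whose locus, introns included, overlaps that of Has2 over 4596 bases, was 1.34 FPKM in f/f against 1.05 in d/d. Its longest annotated transcript is 1012 nt, and the overlap of exons was not measured. Chtf8, whose locus overlaps that of Has3 over 704 bases, was 92.1 and 113 FPKM, far above Has3 and higher in d/d. Where exons of such partners overlap, their reads cannot be told apart without strand, so the Has3 level is uncertain.

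The promoter of Has1 is shown because RefSeq (GRCm38.p6) gave one for it among the synthases, from 250 bases before to 50 bases from the start site, at chr17:17855139-17855438 on the minus strand. Capitals mark matches on either strand to AGAACA, the half-site of progesterone and glucocorticoid receptors, to GGTCA, the half-site of estrogen receptors, or to TGACTCA, the AP-1 site, motifs kept from a wider set after the matches had been seen.
Has1 promoter: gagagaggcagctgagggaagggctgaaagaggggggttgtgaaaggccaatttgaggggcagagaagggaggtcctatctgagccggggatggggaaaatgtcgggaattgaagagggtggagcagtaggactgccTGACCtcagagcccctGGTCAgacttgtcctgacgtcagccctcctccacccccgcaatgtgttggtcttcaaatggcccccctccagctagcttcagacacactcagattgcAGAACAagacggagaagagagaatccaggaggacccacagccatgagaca
It held AGAACA at the start site itself and GGTCA at 97 bases before it on the plus strand and 113 bases before it on the minus strand of the gene. Of 32851 mouse promoters in the same table, 19.0% held AGAACA, 40.5% held GGTCA and 5.20% held TGACTCA on either strand. Promoters were available for 6 of the 8 genes, and Has2 and Has3 had no entry.

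Precursor enzymes feed the synthases. Of the 7 measured, 1 was lower by at least 2-fold and 1 was higher (median ratio -0.12), against 8.28% and 10.2% of all genes. Gfpt2, an isoform of the rate-limiting enzyme of the hexosamine pathway, was 10.1 FPKM in f/f against 2.03 in d/d, a 4.98-fold lower level. Its sister isoform Gfpt1 was 25.5 and 36.0 FPKM, with a ratio of 0.48. Uap1, which makes UDP-N-acetylglucosamine in the last step, was 29.0 FPKM in f/f against 62.8 in d/d. Ugdh, which makes UDP-glucuronic acid, was 58.2 and 46.6 FPKM, a ratio of -0.31, and had the highest mean level of the list. The precursor genes thus went in both directions. They are not set against the synthases, since Has1 and Has3 could pass the filter only with a lower d/d level.

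The 2 hyaluronidase genes of the 8 had ratios of opposite sign although they lie next to each other on chromosome 9. HYAL2 is anchored at the cell surface and cuts long chains into fragments, and HYAL1 is a lysosomal enzyme that cuts fragments further. Hyal2 (chr9:107567945-107572779, plus strand) was 63.4 FPKM in f/f against 106 in d/d, the highest level of the 8 genes in either library. Its ratio of 0.73 was exceeded or equalled by 15% of genes. Hyal1 (chr9:107576927-107581710, plus strand) was 8.99 FPKM in f/f against 5.18 in d/d, a 1.73-fold lower level and a ratio of -0.69. Hyal2 exceeded Hyal1 by 7.05 times in f/f and by 20.4 times in d/d. Neither gene passed the 2-fold rule, and both passed a rule of 1.5-fold, which 17.8% of genes passed downwards and 18.8% upwards.

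Hyal1 shares 2824 bases of its locus with Naa80 on the same strand, at 15.4 FPKM in f/f against 18.8 in d/d, and 893 bases with Hyal3. Part of its level may therefore have been assigned to or from these neighbours. The promoter of Hyal2 (chr9:107568913-107569212, plus strand) is shown as that of the gene with the higher level.
Hyal2 promoter: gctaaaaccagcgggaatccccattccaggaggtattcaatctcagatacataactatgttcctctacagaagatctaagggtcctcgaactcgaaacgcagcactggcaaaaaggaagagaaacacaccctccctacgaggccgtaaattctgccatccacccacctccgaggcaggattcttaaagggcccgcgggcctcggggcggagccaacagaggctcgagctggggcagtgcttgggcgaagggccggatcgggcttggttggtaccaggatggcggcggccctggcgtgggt
It held none of the 3 motifs, as the absence of capitals shows, and 18 CpG dinucleotides, the most of the 6 promoters. Its letters say nothing about which factors act on the gene.

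Among the other breakdown genes, none of the 6 measured passed the 2-fold rule, and 5 had ratios above 0 (median 0.12). Hexa, which encodes a lysosomal glycosidase subunit, had the highest mean level, at 74.2 FPKM in f/f against 78.8 in d/d. Gusb, the lysosomal glucuronidase, came nearest to the rule at 48.7 and 95.7 FPKM, a ratio of 0.96. Cemip, which promotes hyaluronan breakdown outside the lysosome, was 0.899 and 1.76 FPKM, and Cemip2 was 8.86 and 9. Cemip passed the filter through d/d alone and could only be higher. Hyal3 was 1.22 FPKM in f/f against 1.13 in d/d. The sperm hyaluronidase gene Spam1 and its relatives Hyal4, Hyal5 and Hyal6 were listed at 0 in both libraries.

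CD44 is the most widely expressed hyaluronan receptor, and its gene differed least of the 8. Cd44 (chr2:102811141-102901665, minus strand) was 21 FPKM in f/f against 17.7 in d/d, a ratio of -0.24 that 35.0% of genes reached or passed downwards. Gene-level FPKM does not separate its splice forms, of which 9 transcripts are annotated. Of 8 CD44 partners, 4 were higher by at least 2-fold and none was lower (median 0.82), against 10.2% and 8.28% of all genes. Esrp1, an epithelial splicing factor known to promote variant exons of CD44, was 4.64 FPKM in f/f against 24.6 in d/d, and its sister Esrp2 was 8.83 and 10.9. Ezrin, Ezr, which ties CD44 to the actin cortex in epithelia, was 35.5 and 141 FPKM, while moesin, Msn, which does so in stromal and blood cells, was 145 and 87.1. Osteopontin, Spp1, a further ligand of CD44, was 44.0 and 106 FPKM, and the membrane protease Mmp14, which can cleave CD44, had the highest mean level of the partners, at 132 and 267.

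Of the 6 other receptors measured, 1 was higher and 1 lower by at least 2-fold (median -0.21), against 10.2% and 8.28% of all genes. Hmmr, a hyaluronan-binding protein that also serves the mitotic spindle, was 18.4 FPKM in f/f against 8.15 in d/d. Tlr2, an innate receptor that can respond to hyaluronan fragments, was 10.2 and 21.8 FPKM. Lyve1, the receptor of lymphatic vessels, was 14.4 and 8.17 FPKM with a ratio of -0.75. The scavenger receptor gene Stab1 had the highest mean level, at 29.2 and 23.6 FPKM, and did not pass the rule. Receptor genes thus went in both directions, beside a Cd44 level that was nearly equal.

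Versican is a large chondroitin sulfate proteoglycan whose N-terminal domain binds hyaluronan. Vcan (chr13:89655312-89742509, minus strand) was 54.1 FPKM in f/f against 29.7 in d/d, the second level of the 8 genes in each library. Its ratio of -0.84 was reached or passed downwards by 10.9% of genes. The enzymes that cleave versican and the proteins that bind it went both ways. Of 8 genes, 2 were lower and 2 higher by at least 2-fold (median -0.48), against 8.28% and 10.2% of all genes. The proteases Adamts15 and Adamts9 were 18.2 and 6.79 FPKM and 25 and 11.3 FPKM in f/f and d/d. Their relative Adamts1 was 41.1 and 23.3 FPKM, a ratio of -0.79, and Adamts4 was 13.7 and 21.6, a ratio of 0.62. Fibulin-2, Fbln2, and fibrillin-1, Fbn1, both versican-binding matrix proteins, were higher in d/d at 52.2 and 149 FPKM and 36.8 and 78.8 FPKM. Fbln1 had the highest mean level at 113 and 101 FPKM.

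TSG-6 is a secreted protein that moves heavy chains of inter-alpha-inhibitor onto hyaluronan, and pentraxin-3 helps to tie these chains together, an assembly best known from the matrix of the ovulated cumulus. Tnfaip6 (chr2:52038009-52056686, plus strand) was 7.45 FPKM in f/f against 3.68 in d/d, about 227 and 130 fragments over its single transcript of 1710 nt. Its ratio was -0.85, which 10.6% of genes reached or passed downwards. The promoter (chr2:52037863-52038162, plus strand) is shown because it held 2 of the 3 motifs.
Tnfaip6 promoter: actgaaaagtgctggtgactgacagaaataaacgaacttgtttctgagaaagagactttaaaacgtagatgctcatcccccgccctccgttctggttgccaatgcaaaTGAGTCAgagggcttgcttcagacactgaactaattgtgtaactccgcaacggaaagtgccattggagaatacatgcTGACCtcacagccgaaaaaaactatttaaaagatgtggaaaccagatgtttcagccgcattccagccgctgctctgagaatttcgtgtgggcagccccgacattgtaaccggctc
The AP-1 match starts 142 bases and the GGTCA match 65 bases before the start site, both on the minus strand of the gene. The promoters of Vcan, Cd44 and Hyal1 held none of the 3 motifs.

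The list of heavy chain genes, Ambp and the pentraxin gene included the gene with the lowest ratio of the 63 hyaluronan genes listed. Ptx3 (chr3:66219910-66225805, plus strand), the pentraxin-3 gene, was 32.7 FPKM in f/f against 0.268 in d/d, a 122-fold lower level that stands on about 10 fragments in d/d. On the (FPKM + 1) scale its ratio was -4.73, and 33 of the 16263 genes were at or below it. Itih5, a gene of the heavy chain family, was 22.4 FPKM in f/f against 5.90 in d/d, a 3.79-fold lower level. Ptx3 passed the filter through f/f alone, and Itih5 passed it in both libraries. The other 5 genes of this list, Itih1, Itih2, Itih3, Itih4 and Ambp, stayed under 1 FPKM in both libraries. Link proteins fasten proteoglycans to hyaluronan, and the 3 measured passed the filter through f/f alone, so that they could pass only with a lower d/d level. Hapln3 was 5.57 FPKM in f/f against 0.956 in d/d, while Hapln1 was 1.17 and 0.389 and Hapln2 was 1.09 and 0.0948. The aggrecan gene Acan was 0.0744 and 0.0792 FPKM, so among the proteoglycan genes of this list and Vcan, versican was the one with a level above 1 FPKM.

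Over all 55 other hyaluronan genes, 40 reached 1 FPKM in a library, and of these 7 were lower and 8 higher by at least 2-fold (median -0.02). Both shares of the 40 were larger than the 8.28% and 10.2% of all genes given above, while the median was near the -0.01 of all genes. The list was chosen with earlier results of these data known, so the shares are no test.

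**Figure D3:**
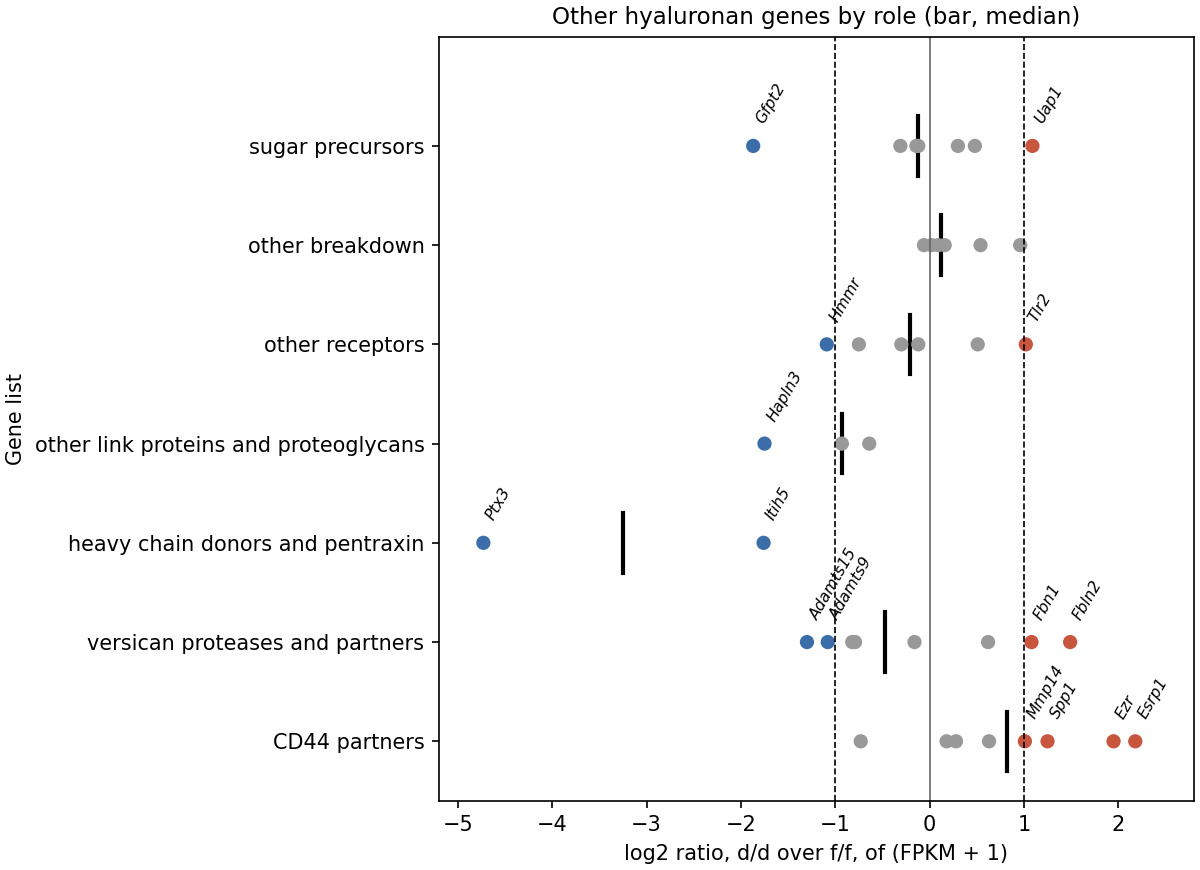
Log2 ratio, d/d to f/f on (FPKM + 1), for each measured gene of 7 role lists (points, named where at or past the dashed 2-fold lines) with the list median (bar). Ptx3 lies farthest left at -4.73, and the CD44 partners lie mostly to the right, led by Esrp1 at 2.18.

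In whole uterus, fewer cells of a type and less RNA per cell cannot be told apart, and markers of several cell types differed between the libraries alongside the hyaluronan genes. Stromal fibroblasts, which are known as a main source of hyaluronan and versican, had 8 of 8 markers with ratios below 0. Of these, 5 were lower by at least 2-fold (Pdgfra, Hoxa10, Hoxa11, Hand2 and Vim). The matrix genes Dcn, Lum and Col1a1 differed little, with ratios of -0.17, -0.16 and -0.29. The list had a median ratio of -1.78 and a summed level of 3818 FPKM in f/f against 2175 in d/d. Vcan was 58.5 FPKM per 100 FPKM of the stromal marker Pdgfra in f/f against 119 in d/d, whereas per 100 FPKM of the stromal matrix gene Dcn it was 5.94 and 3.66. Has2 was 9.77 and 13.8 FPKM per 100 FPKM of Pdgfra, and 0.992 and 0.426 per 100 FPKM of Dcn. Per 100 FPKM of vimentin, Vim, also a stromal marker, Vcan was 5 in f/f against 9.05 in d/d, and Has2 was 0.836 and 1.05. Relative to Pdgfra and Vim both genes were thus higher in d/d, and relative to Dcn both were lower.

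Of 7 epithelial markers, all with ratios above 0, 6 were higher by at least 2-fold (median 2.83, summed level 234 and 1853 FPKM), and the epithelial genes Ezr and Esrp1 were higher with them. Over all genes 10.2% were higher and 8.28% lower by this rule, which is the background for every marker list. Of 6 macrophage markers, all with ratios above 0, 4 were higher by at least 2-fold (median 1.19, summed level 612 and 1465 FPKM). Of 6 endothelial markers, all with ratios below 0, 4 were lower by at least 2-fold (median -1.12, summed level 319.5 and 146 FPKM), beside the lymphatic vessel gene Lyve1. Of 6 smooth muscle markers, all with ratios below 0, 2 were lower by at least 2-fold (median -0.84, summed level 4819.6 and 3155 FPKM). In the list of natural killer and T cells 4 of 6 were lower and 2 higher by at least 2-fold (summed level 181 and 48.7 FPKM). The 4 were Ncr1, Nkg7, Prf1 and Gzmb, and the 2 were the T cell genes Cd3e and Cd3g. Ncr1, Prf1 and Gzmb passed the filter through f/f alone and could pass only with a lower d/d level. The part of these cell types in the differences of the 8 genes was not tested.

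Cell types that could be carried over with the tissue were checked in the same way. Of 6 mesothelial markers, 4 reached 1 FPKM and 2 of these were lower by at least 2-fold, with a summed level of 89.8 and 21.1 FPKM that came mostly from Wt1 (84.3 and 17.5 FPKM), a gene of uterine stroma too. The mesothelial marker Msln was 0.833 and 2.13 FPKM and Upk3b was 1.87 and 0.332. Msln passed the filter through d/d alone and Upk3b through f/f alone, so the filter fixed the direction of each. In the granulosa and cumulus list 2 of 3 measured genes were higher by at least 2-fold, and Inha did not pass the rule. The summed level of that list was 21.1 FPKM in f/f against 214 in d/d. The 2 were Inhbb, at 5.29 and 182 FPKM, and Foxl2, at 14.5 and 31.2, genes that the uterus also expresses. Amh was 0.109 and 0.0313 FPKM, and Fshr and Cyp19a1 were at 0. Fat-cell markers had a summed level of 2.96 FPKM in f/f against 106 in d/d, with Plin1, Lep and Cidec at 0 in f/f. The d/d sum came mostly from Cfd, at 0.0867 FPKM in f/f against 66.6 in d/d. Of the 4 measured, Adipoq, Cfd and Cidec passed the filter through d/d alone and could only be higher, and Fabp4 was 2.67 and 28.9 FPKM. Neutrophil markers were higher by at least 2-fold in 2 of 4 measured (summed level 11.5 and 28.5 FPKM), with Ly6g at 0 in f/f and Elane at 0 in both. Ly6g and Mpo passed the filter through d/d alone and could only be higher. S100a8 was 8.21 FPKM in f/f against 8.08 in d/d, and S100a9 was 2.67 and 9.51. The part of these cells was not tested either.

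**Figure D4:**
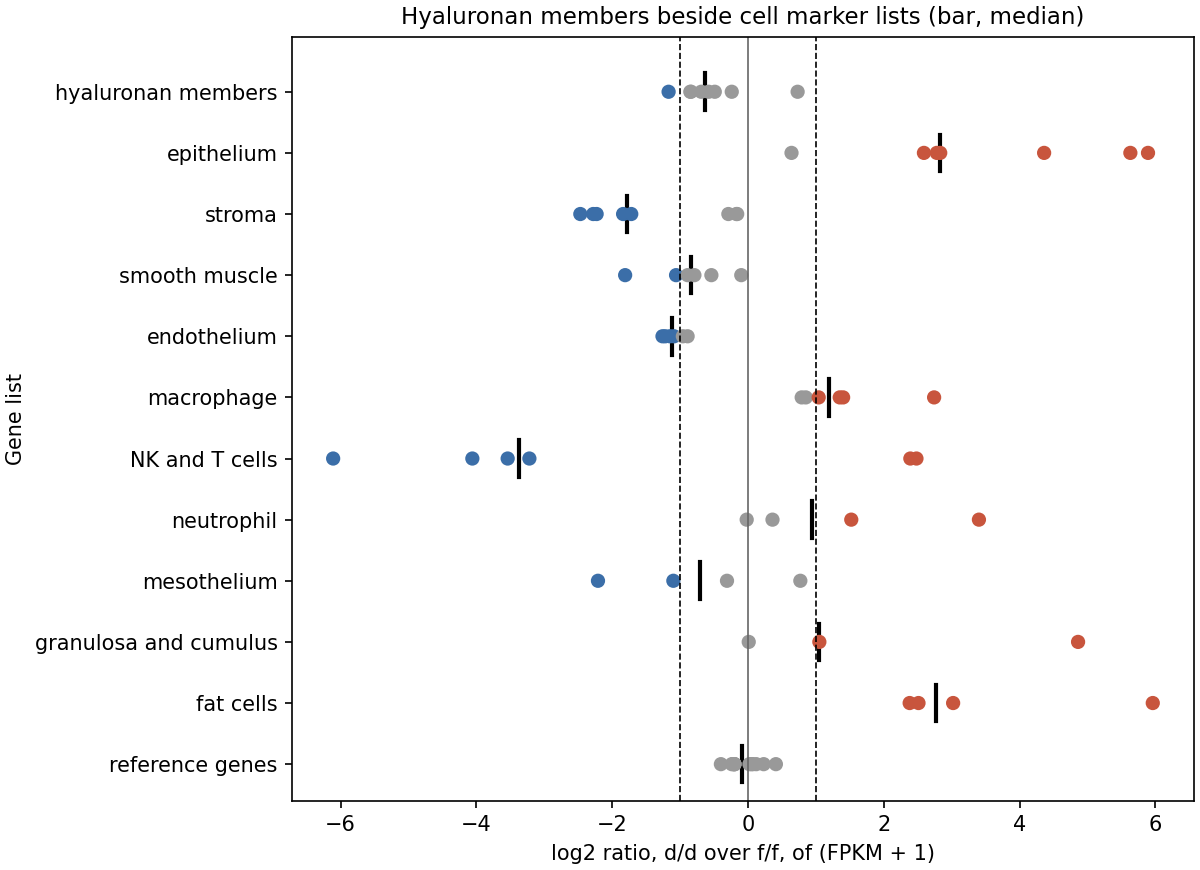
Log2 ratio, d/d to f/f on (FPKM + 1), for each measured gene of the hyaluronan group, of 10 cell marker lists and of the reference genes (points, coloured where at or past the dashed 2-fold lines), with the list median (bar). The hyaluronan genes span -1.17 to 0.73, with a median of -0.63, against -0.09 for the reference genes. Lower medians are those of mesothelium (-0.71), smooth muscle (-0.84), endothelium (-1.12), stroma (-1.78) and natural killer and T cells (-3.38). The medians of the other cell lists are higher than that of the hyaluronan genes.

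The order of levels across the 8 genes was similar in the libraries. In f/f it ran Hyal2, Vcan, Cd44, Has2, Hyal1, Tnfaip6, Has3 and Has1, from 63.4 down to 1.21 FPKM. In d/d it ran Hyal2, Vcan, Cd44, Hyal1, Tnfaip6, Has2, Has1 and Has3, from 106 down to 0.502 FPKM. Has2 ranked 4 in f/f and 6 in d/d, there below Hyal1 and Tnfaip6. In f/f, Has2 and Hyal1 lay at 9.04 and 8.99 FPKM, too near to be ordered with 1 library. Genes of like pattern were not sought, since 2 libraries give each gene a single difference.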

How the data were processed

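Whole-uterus RNA of 1 Mettl14 f/f and 1 Mettl14 d/d library was sequenced, from TruSeq RNA libraries per the labels' protocols. The deposited values are FPKM per gene, made by the authors with HISAT2 2.2.1 and Cufflinks 2.2.1 on mm10 per the submitters' processing notes. The sources used here give neither the annotation release nor the use of strand. The 55483 rows were summed by symbol to 55363 genes. With Python 3.11.15, pandas 2.3.3 and numpy 2.4.6, log2 of (FPKM + 1) was taken and d/d minus f/f called the log2 ratio, and genes at 1 FPKM or more in a library were counted at 2-fold. No test was possible with 1 library per genotype. Depth was estimated from the steps of low values of genes with a single transcript of at least 2000 nt, where 76.4% of 749 values in f/f and 74.0% of 772 in d/d fell within 0.1 of a whole number of fragments. Depth is approximate, since full length replaced effective length, and fragment numbers are FPKM times the length of the coding transcript with the longest coding sequence. The scripts were tested on simulated data.

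The 8 genes, the 55 other hyaluronan genes and the marker lists were chosen with earlier results of these data known. Named from the other hyaluronan genes were those past 2-fold and the most abundant of each role, and further ones were added after their values were seen. Some list genes are not reported here. Positions and transcripts are from GENCODE M21 (GRCm38, also called mm10), promoters from RefSeq.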

Additional observations from a re-analysis of the deposited data

How the results depend on the processing

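Has2 was counted as lower under every setting tried except a pseudocount of 5 FPKM, and the directions of the 8 genes did not reverse under any. The count of the 8 genes lower by 2-fold was 1, and became 2 with a pseudocount of 0.1 (Has2 and Has3), 0 with a pseudocount of 5, and 4 with no pseudocount, a setting added after seeing the data. With a rule of 1.5-fold, 4 were lower (Has2, Hyal1, Vcan and Tnfaip6) and 1 higher (Hyal2), 5 in all. Of the other hyaluronan genes, 15 were counted. With a pseudocount of 5 that was 3 lower and 5 higher, 8 in all, and at 1.5-fold 13 were lower, 24 in all. Over all genes the count of 2998 became 869 higher and 539 lower, 1408 in all, with a pseudocount of 5, and 3063 higher and 2888 lower, 5951 in all, at 1.5-fold. These changes follow from how the settings are built. With a filter of 5 FPKM, or after scaling each library to an equal sum, 6 of the 8 genes were measured, without Has1 and Has3. The median ratio of the measured genes among the 8 ranged from -0.94 with no pseudocount and -0.91 with 0.1 to -0.33 with 5. It was -0.77 with the filter of 5 FPKM and -0.75 with the equal sum. The 3 scalings moved the median of all genes by at most 0.004 in size. The synthase shares were equal when the highest row per symbol replaced the sum. No paired analysis was possible because there is 1 library per genotype, and for the same reason no replicate could be left out.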
